A study of Rattus norvegicus with 6 samples.

Results

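The genes of fatty acid synthesis from acetyl-CoA were followed in the kidneys of 6 male Sprague Dawley rats. The group was chosen by gene symbol and holds 10 genes, of which 9 were found among the 17051 genes listed for every rat. The exception was Srebf1, which encodes the sterol-regulated factor SREBP-1 and is not analysed here. All 9 genes reached the count minimum of 30 in some rat and were among the 11553 genes tested. The AL group (rats 61, 71 and 88) was given standard chow ad libitum. The HD group (rats 64, 67 and 69) was given for a week a hyperammonemic diet, in which an amino acid mixture that mimics hemoglobin was added to powdered chow, and the rats were assigned at random. The strain, the sex and the chow base were shared by both groups. The comparison addresses how the kidney's lipogenic transcripts differ when the load of amino acids is raised.

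De novo lipogenesis builds fatty acids from carbon that leaves the mitochondria as citrate. ATP citrate lyase (Acly) and the acetyl-CoA synthetase Acss2 supply cytosolic acetyl-CoA, acetyl-CoA carboxylase (Acaca, Acacb) makes malonyl-CoA, and fatty acid synthase (Fasn) joins these units into palmitate. Elovl6 lengthens palmitate and Scd1 places a double bond in the product. SREBP-1 and the carbohydrate-responsive factor ChREBP (Mlxipl) drive transcription of these enzymes in liver and fat, and Thrsp, known as Spot 14, is a small nuclear protein induced with them. The kidney cortex is better known for burning fatty acids than for making them, while the fat that surrounds the kidney and fills its sinus is lipogenic.

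Each rat was a library of its own, with a total estimated count between 12499945 and 30466461. Levels are given as CPM, the count scaled to a common library size after TMM normalization, which compares a gene between rats. They are also given as the authors' TPM, which is scaled to transcript length as well and compares genes within a rat. The kidney label was checked against marker genes. The 8 proximal tubule markers summed to 6683 to 9296 CPM in the AL group and 9065 to 13112 CPM in the HD group, the 4 thick ascending limb markers to 5485 to 6232 CPM and 3648 to 5915 CPM, and the 5 hepatocyte markers to no more than 2.78 CPM in any rat. Single markers of several cell types lay apart between the groups. Every HD rat was above every AL rat for 3 of 7 tested proximal tubule markers (Slc34a1, Slc22a6 and Gatm) and 2 of 6 markers of the distal tubule and collecting duct (Slc12a3 and Calb1), against 7.25% of all tested genes. Every HD rat was below every AL rat for 1 of these 6 (Slc4a1), 1 of 4 thick ascending limb markers (Slc12a1) and 1 of 4 tested macrophage markers (Lyz2), against 7.01%. The 5 listed macrophage markers summed to 112 to 418 CPM in the AL group and 40.9 to 93.9 CPM in the HD group, without overlap. The part of these differences in the results given here was not tested. In bulk tissue, fewer cells of a type and less RNA per cell cannot be told apart.

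When *P* values of the quasi-likelihood test in edgeR were adjusted by Benjamini-Hochberg over all tested genes, none of the 9 lipogenic genes passed an adjusted *P* value of 0.05, and the share passing among all tested genes was 0%. At an unadjusted *P* value below 0.05, 3 of the 9 genes differed in edgeR (Acly higher, Acacb and Mlxipl lower in the HD group), against 10.6% of all tested genes. DESeq2 placed none of the 9 past its adjusted threshold, against 1.58% of all tested genes. A log2 fold change above 1 or below -1 was found for 4 of the 9 (Fasn, Scd1 and Thrsp higher, Acacb lower), against 6.33% of all tested genes. The fold change pointed to higher levels in the HD group for 6 genes (Acly, Acaca, Fasn, Scd1, Acss2 and Thrsp) and to lower levels for 3 (Acacb, Elovl6 and Mlxipl), against 51.3% of all tested genes on the higher side. The median log2 fold change was 0.57 over the 9 genes and 0.00673 over all tested genes. The groups did not overlap for Acly, with every HD rat above every AL rat (7.25% of all tested genes), and for Mlxipl, with every HD rat below every AL rat (7.01%).

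**Figure D1:**
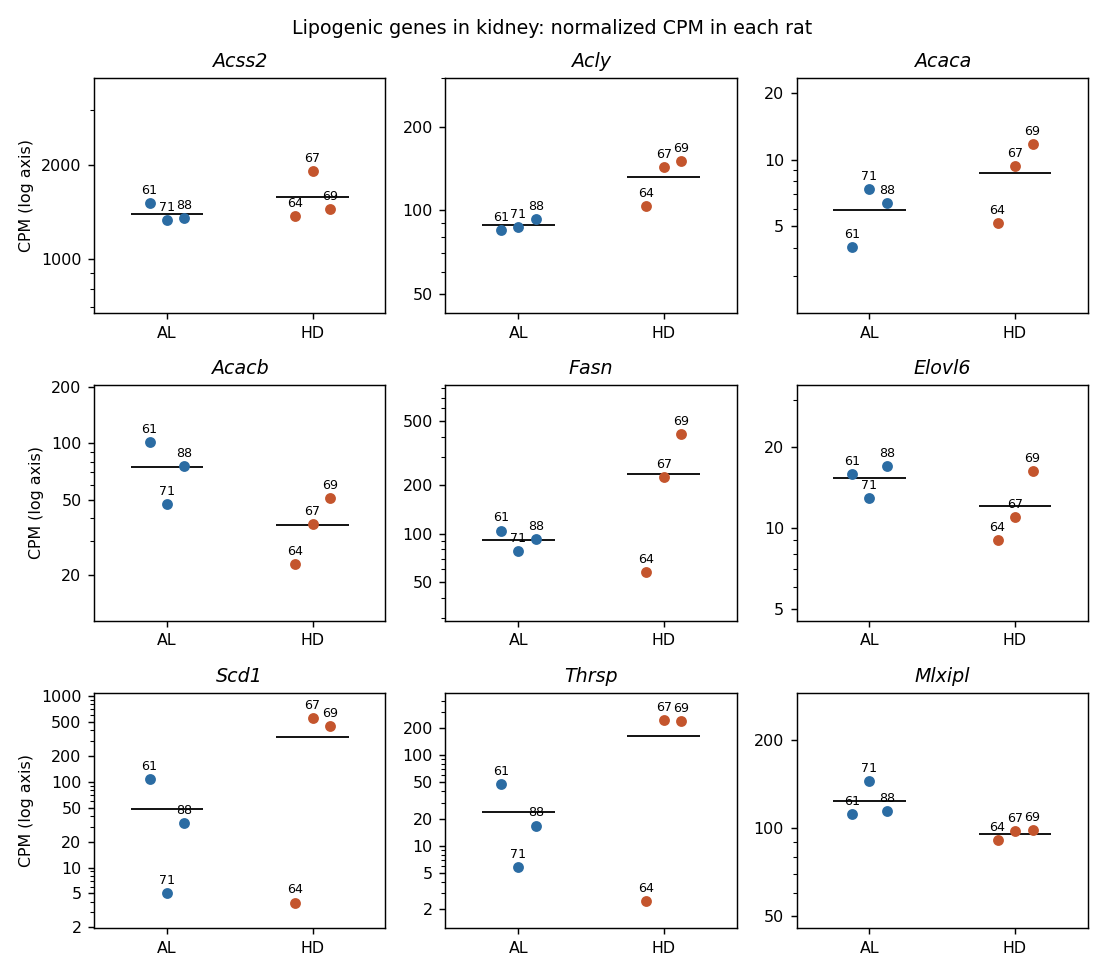
Normalized CPM of the 9 lipogenic genes in each kidney, on a log axis that differs between panels. Each point is a rat labelled with its number (blue AL, red HD), and the line is the group mean. Acly and Mlxipl are the genes whose groups do not overlap, and in Fasn, Scd1 and Thrsp the HD rats lie on both sides of the AL rats.

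On the TPM scale, which takes length into account, Acss2 stood far above the other genes, with 772 ± 27.0 TPM in the AL group and 828 ± 132 TPM in the HD group (SD, *n* = 3 each). In the AL group it was followed by Mlxipl (68.5 ± 16.0 TPM) and Acly (32.5 ± 3.67 TPM), and every AL rat kept Mlxipl above Acly. Thrsp (29.4 ± 25.2), Acacb (16.1 ± 4.48), Scd1 (15.9 ± 16.4) and Fasn (15.6 ± 0.968 TPM) came next. Neighbours from Acly to Fasn in this order did not differ beyond their spread. Elovl6 (9.73 ± 1.13 TPM) lay below Fasn in every AL rat, and Acaca (1.39 ± 0.506 TPM) was lowest. In the HD group the order of the means was Acss2, Thrsp (206 ± 176), Scd1 (113 ± 97.1), Mlxipl (49.9 ± 4.36), Acly (46.3 ± 10.3), Fasn (39.0 ± 31.9), Acacb (7.77 ± 3.35), Elovl6 (7.42 ± 2.74) and Acaca (1.94 ± 0.815 TPM). From Thrsp to Elovl6 the ranges of neighbours in that order overlapped.

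Promoter sequence was read for 2 sets of genes, the pair Thrsp and Scd1, which ordered the rats alike, and Acly and Mlxipl, whose groups did not overlap. RefSeq sequence on build GRCr8 was found for 6 of the 9 genes (Acacb, Acly, Acss2, Mlxipl, Scd1 and Thrsp). The 150 bases before the transcription start are given, and capitals mark a CCAAT box (CCAAT or ATTGG, both strands) or a GC box (GGGCGG or CCGCCC, both strands).
Thrsp, chr1:161138965-161139114, minus strand: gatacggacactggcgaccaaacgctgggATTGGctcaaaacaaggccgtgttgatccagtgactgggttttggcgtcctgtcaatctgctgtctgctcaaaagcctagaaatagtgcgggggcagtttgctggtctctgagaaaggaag
Scd1, chr1:253231732-253231881, minus strand: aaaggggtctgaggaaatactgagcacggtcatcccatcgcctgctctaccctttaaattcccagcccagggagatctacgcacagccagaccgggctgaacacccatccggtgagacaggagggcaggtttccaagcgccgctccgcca
Acly, chr10:85963632-85963781, minus strand: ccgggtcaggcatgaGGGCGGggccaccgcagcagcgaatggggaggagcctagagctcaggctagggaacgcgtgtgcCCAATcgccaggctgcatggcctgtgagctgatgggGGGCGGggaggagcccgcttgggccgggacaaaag
Mlxipl, chr12:27213661-27213810, minus strand: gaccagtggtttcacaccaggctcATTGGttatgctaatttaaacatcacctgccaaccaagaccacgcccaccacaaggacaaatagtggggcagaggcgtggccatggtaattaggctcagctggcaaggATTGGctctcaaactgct
Over the full 250 bases before the start, Acly held 1 CCAAT box and 3 GC boxes, Thrsp 1 of each, and Mlxipl 2 CCAAT boxes and no GC box before the first of its 2 listed starts. Scd1, whose current RefSeq symbol is Scd, held neither motif. Acacb held 1 CCAAT box, and Acss2 held 1 CCAAT box and 4 GC boxes. Of 33469 windows of the same length, 34% held a CCAAT box and 30.5% a GC box. The E-box CACGTG and the sterol response element core TCACCCCAC (or GTGGGGTGA) were in none of the 6 genes' windows, and in 5.59% and 0.409% of all windows.

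Acly splits cytosolic citrate into acetyl-CoA and oxaloacetate. It lies on chromosome 10 of rn5, from 88185495 to 88236092 on the minus strand. Its level was 85.1, 86.7 and 93.2 CPM in AL rats 61, 71 and 88 and 104, 143 and 150.02 CPM in HD rats 64, 67 and 69. All HD rats lay above the AL rats, with rat 64 nearest to them. The AL rats spanned a 1.09-fold range and the HD rats a 1.45-fold range. The log2 fold change of 0.58, with a standard error of 0.15, had an unadjusted *P* value of 0.00625 in edgeR and did not pass after adjustment (adjusted *P* = 0.398). The adjusted *P* value in DESeq2 was 0.0641, which did not pass either.

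The 2 listed Acly transcripts, with 28 and 29 exon blocks, differ by an exon of 30 bases at 88211382 to 88211411 of chromosome 10. The longer form, which includes that exon, took 26%, 28.8% and 32.3% of the gene's estimated counts in the AL rats and 43.9%, 23.2% and 47.6% in HD rats 64, 67 and 69. Its share was highest in rats 69 and 64 and lowest in rat 67, so the groups overlapped. Reads that do not touch the exon fit both forms and were divided by the authors' quantification. With the posterior mean counts the shares were 42.1%, 31.9% and 37.8% in the AL rats and 44.6%, 26.6% and 50.8% in the HD rats.

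Acss2 makes acetyl-CoA from free acetate and was the most abundant gene of the group. It lies on chromosome 3 of rn5 (157400421 to 157443341, plus strand). Its level was 1507, 1335 and 1349 CPM in the AL rats and 1373, 1912 and 1445 CPM in HD rats 64, 67 and 69. Rat 67 was high and the other HD rats lay within the range of the AL group. HD and AL rats differed by a log2 fold change of 0.17 with a standard error of 0.16 (edgeR adjusted *P* = 0.771), and it was 0.01 without rat 67.

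Of 11 tested genes that supply citrate and NADPH to lipogenesis, 6 had higher fold changes in the HD group (51.3% of all tested genes). The other 5 had lower ones (Me1, Me2, Me3, Idh2 and Nadk), and the median over the 11 was 0.067 on the log2 scale. None passed the adjusted threshold. At an unadjusted *P* value below 0.05 edgeR placed 2 genes on the higher side (4.66% of all tested genes) and 0 on the lower side (5.94%). Both feed the step that Acly carries out. The citrate carrier of the inner mitochondrial membrane, Slc25a1, had 98.96, 82.8 and 88.1 CPM in the AL rats and 113, 116 and 127 CPM in the HD rats, with no overlap and a log2 fold change of 0.40 with a standard error of 0.11 (edgeR adjusted *P* = 0.398). Citrate synthase (Cs) had 84.3, 94.5 and 88.8 CPM in the AL rats and 114, 98.8 and 107 CPM in the HD rats, again with no overlap and a log2 fold change of 0.26 (edgeR adjusted *P* = 0.465). Cytosolic malate dehydrogenase (Mdh1) had a log2 fold change of 0.17, and its groups overlapped.

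The 2 genes for acetyl-CoA carboxylase had fold changes of opposite sign. Acaca encodes the cytosolic form, which provides malonyl-CoA for synthesis, and Acacb the form at the mitochondrial surface, whose malonyl-CoA restrains fatty acid import for oxidation. Acacb, on chromosome 12 of rn5 (49914427 to 50000957, minus strand), had 102, 47.7 and 75.8 CPM in AL rats 61, 71 and 88 and 22.7, 37.2 and 50.9 CPM in HD rats 64, 67 and 69. The groups overlapped by 1 pair of rats, since HD rat 69 lay above AL rat 71. The log2 fold change was -1.02, with a standard error of 0.35, an unadjusted *P* value of 0.0211 and an adjusted *P* value of 0.406 in edgeR.

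Acaca, on chromosome 10 of rn5 (71431885 to 71630271, plus strand), was low, with 4.05, 7.37 and 6.35 CPM in the AL rats and 5.18, 9.34 and 11.8 CPM in the HD rats. Rats 69 and 67 were highest and rat 64 fell within the AL range. Its log2 fold change was 0.57 with a standard error of 0.36 (edgeR adjusted *P* = 0.638), and it was 0.30 without rat 69 and 0.36 without rat 61.

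Within each rat, the TPM of Acacb was 24.1, 6.15 and 11.4 times that of Acaca in the AL group and 4.14, 3.79 and 4.12 times in the HD group. The ratio was lower in every HD rat than in every AL rat and varied little within the HD group (4.02 ± 0.197) against the AL group (13.9 ± 9.21, SD). The difference of the mean log2 ratio was -1.57, with a two-sided exact permutation *P* value of 0.1, the smallest that 3 rats against 3 can give. It ranged from -2.04 without rat 71 to -1.06 without rat 61.

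**Figure D2:**
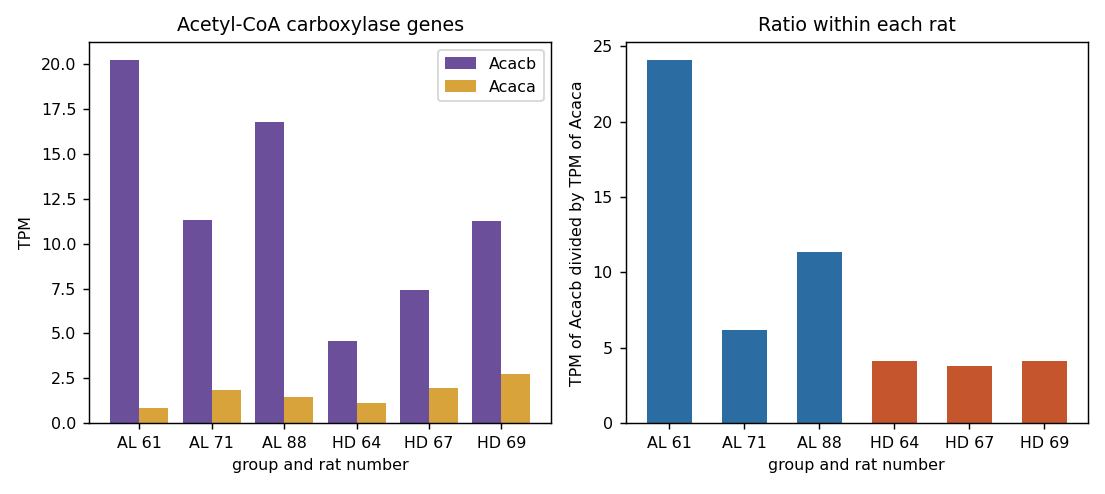
Acetyl-CoA carboxylase genes in each rat, with the authors' TPM of Acacb and Acaca on the left and their ratio within the rat on the right (blue AL, red HD). The ratio lies between 3.79 and 4.14 in the HD rats and between 6.15 and 24.1 in the AL rats.

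Among 10 tested genes that act on carboxylase activity, 7 had higher fold changes (51.3% of all tested genes) and 3 lower ones (Prkaa1, Prkab2 and Prkag2). None passed the adjusted threshold. Prkaa2, a catalytic subunit of the AMP-activated kinase that phosphorylates and inhibits acetyl-CoA carboxylase, had 6.12, 8.37 and 5.56 CPM in the AL rats and 15.2, 8.54 and 10.8 CPM in the HD rats. Its groups did not overlap, although AL rat 71 and HD rat 67 were close, and its log2 fold change was 0.77 (edgeR adjusted *P* = 0.409). The other catalytic subunit, Prkaa1, had 6.91, 7.82 and 8.54 CPM in the AL rats and 6.79, 6.25 and 5.98 CPM in the HD rats, with every HD rat lower and a log2 fold change of -0.29 (edgeR adjusted *P* = 0.652). The regulatory subunit Prkab1 had a log2 fold change of 0.09. Trib3, a pseudokinase that promotes breakdown of the carboxylase, was low, with no more than 1.6 CPM in any rat.

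Fasn, Scd1 and Thrsp had the highest fold changes of the group and the widest spread within it. Thrsp, on chromosome 1 of rn5 (168587724 to 168592048, minus strand), had 47.9, 5.88 and 16.7 CPM in AL rats 61, 71 and 88 and 2.46, 244 and 239 CPM in HD rats 64, 67 and 69. HD rats 67 and 69 were far above all other rats, and HD rat 64 was the lowest of the 6. The highest HD rat exceeded the lowest 99.3-fold, and the same range was 8.15-fold in the AL group. The log2 fold change of 2.80, with a standard error of 1.32, did not pass (edgeR adjusted *P* = 0.505).

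Scd1, on chromosome 1 of rn5 (271603048 to 271615648, minus strand), ordered the rats in the same way. Its level was 107, 5.04 and 32.96 CPM in the AL rats and 3.90, 549.6 and 451 CPM in the HD rats. The range was 141-fold within the HD group and 21.1-fold within the AL group. HD and AL rats differed by a log2 fold change of 2.81 with a standard error of 1.49 (edgeR adjusted *P* = 0.559), and it was 4.15 without AL rat 61. A log2 fold change above 2.5, a cutoff that was not planned and lies just under this value, was found for 0.398% of all tested genes.

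Scd1 has a close relative on the same chromosome, listed as Scd in the files and as Scd2 in RefSeq, and reads that fit both genes were divided by the authors' quantification. This relative, taken from the list of elongation and desaturation genes and named after its values were seen, had 24.2, 129 and 96.2 CPM in the AL rats and 41.5, 34.2 and 153 CPM in the HD rats. Rats 61, 67 and 64 were low in this gene and rats 69 and 71 high, so it did not share the order of rats seen in Scd1.

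Fasn, the multifunctional synthase itself, lies on chromosome 10 of rn5 (109579051 to 109597217, minus strand). It had 105, 77.9 and 92.8 CPM in the AL rats and 57.5, 224 and 418 CPM in the HD rats. The AL rats were within 1.34-fold of each other, and the HD rats spanned 7.27-fold on both sides of them. The log2 fold change was 1.35 with a standard error of 0.59 (edgeR adjusted *P* = 0.476), with 0.62 without rat 69 and 1.81 without rat 64.

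In these 3 genes, rats 67 and 69 were the highest and rat 64 the lowest of the 6 rats. This arrangement, which was read from the values of these genes, was found for 0.831% of all tested genes (96 genes). That share is a description and no test. The arrangement was also found for 4 of the 10 adipocyte markers tested (Cfd, Fabp4, Retn and Lipe). Scd1, Thrsp, Cfd, Fabp4 and Retn shared the same complete order of rats (67, 69, 61, 88, 71, 64).

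The adipocyte markers were followed rat by rat beside them. Adipsin (Cfd), secreted by fat cells, had 10.2, 1.61 and 2.05 CPM in the AL rats and 0.170, 30.03 and 21.8 CPM in the HD rats. The fatty acid carrier Fabp4 had 53.6, 29.2 and 33.4 CPM and 3.06, 156 and 131 CPM. Both were lowest in HD rat 64 and highest in HD rats 67 and 69. Ucp1, the uncoupling protein of brown fat, had 4.69, 0.166 and 0.397 CPM in the AL rats and 0.340, 35.7 and 46.8 CPM in the HD rats. The lipid droplet coat protein Plin1 had 2.46, 0.111 and 1.39 CPM and 0.594, 11.1 and 12.4 CPM. For both, HD rat 64 lay among the AL rats.

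Adiponectin (Adipoq) had 36.5, 14.0 and 17.2 CPM in the AL rats and 21.0, 69.3 and 39.6 CPM in the HD rats, and hormone-sensitive lipase (Lipe) had 8.66, 9.03 and 11.4 CPM and 2.97, 19.0 and 23.5 CPM. Leptin (Lep) reached 3.65 CPM in rat 67 and was at 0 in rat 71, and resistin (Retn) reached 6.65 CPM in rat 67 and was at 0 in rat 64. Cidec (128 to 190.1 CPM) and lipoprotein lipase (Lpl, 82.8 to 172 CPM), the most abundant markers of the list in the AL rats, had a far narrower range over the rats. The 10 markers summed to 422, 293 and 318 CPM in AL rats 61, 71 and 88 and to 257, 604 and 638 CPM in HD rats 64, 67 and 69. Of the 10, edgeR placed 2 (Plin1 and Ucp1) below an unadjusted *P* value of 0.05, against 10.6% of all tested genes, and none past the adjusted threshold.

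**Figure D3:**
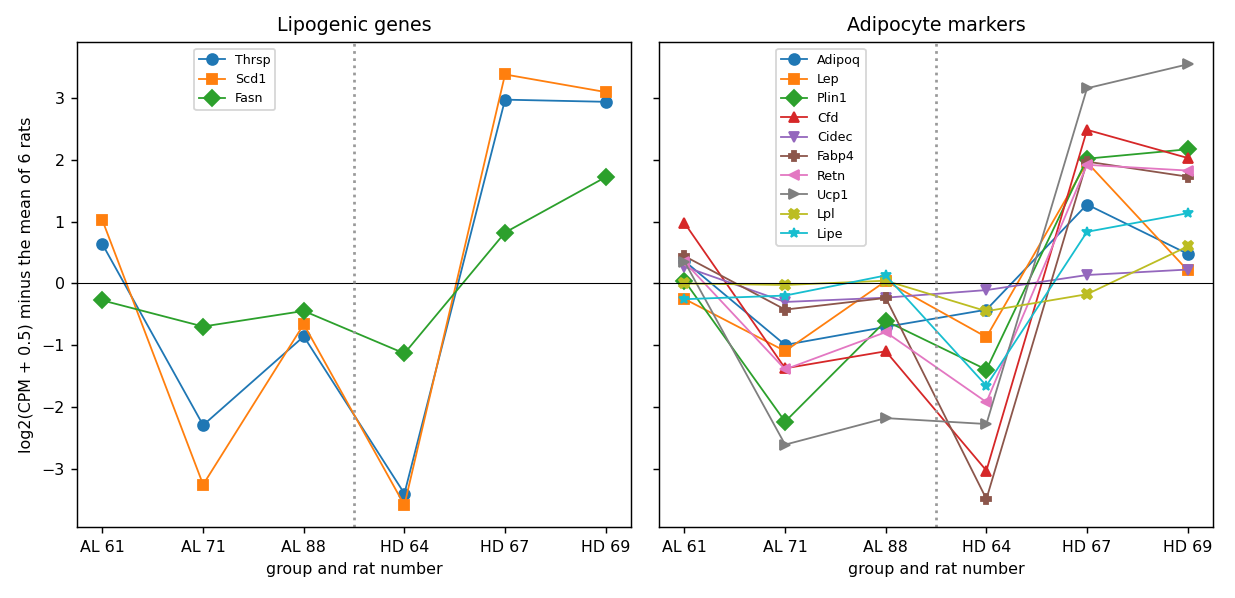
Level of Thrsp, Scd1 and Fasn (left) and of the 10 adipocyte markers (right) in each rat, as log2 of CPM plus 0.5 centred on each gene's own mean. The dotted line divides AL from HD rats, and both panels show HD rat 64 low and HD rats 67 and 69 high for most genes, while Cidec and Lpl stay within 1 of the mean.

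When the mean log2 level of the adipocyte markers was added to edgeR's fit as a covariate, a choice made after these levels were seen, the log2 fold change became -0.51 for Scd1, -0.41 for Thrsp and 0.29 for Fasn. For Acly it was 0.43, for Acacb -1.39 and for Mlxipl -0.37. None of these values passed the adjusted threshold. Scd1 and Thrsp shared their order of rats with markers in the covariate, so a fall of their values could be foreseen and is no test. The same holds for Fasn, which shared rats 67 and 69 as the highest and rat 64 as the lowest with markers in it. With HD rats 67 and 69 both left out, rat 64 stood alone for the HD group, and its spread was taken from the AL rats. The values were then -3.62 for Scd1, -3.25 for Thrsp and -0.68 for Fasn, and 0.22 for Acly, -1.74 for Acacb and -0.46 for Mlxipl, with 1 of the 9 genes on the higher side. Rat 64 was the lowest of the 6 rats in Scd1, Thrsp, Fasn, Acacb, Elovl6 and Mlxipl, and it was above every AL rat in Acly. The sign for each of these genes was therefore fixed by the choice of rats and is no test.

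**Figure D4:**
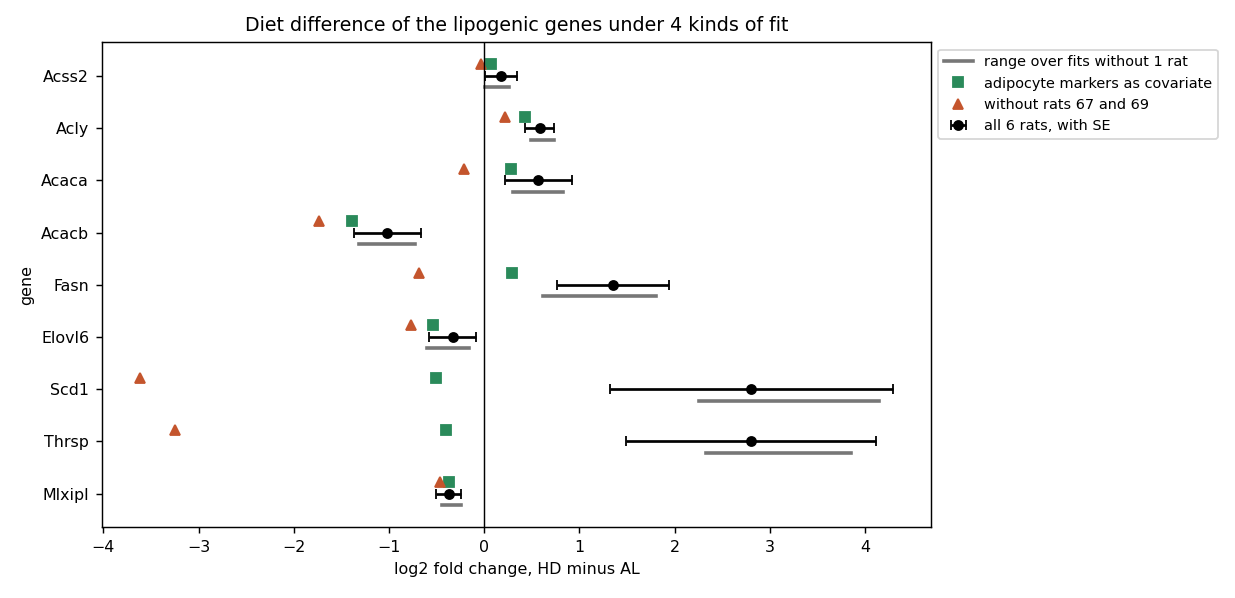
Log2 fold change (HD minus AL) of the 9 lipogenic genes with its standard error (black), the range over fits that leave out 1 rat (grey), the value with adipocyte markers as a covariate (green squares) and without HD rats 67 and 69 (red triangles). Scd1 and Thrsp cross 0 in both added fits, and Fasn, Acaca and Acss2 in the fit without rats 67 and 69. Acly, Elovl6, Acacb and Mlxipl stay on their side of 0. Without rats 67 and 69, rat 64 is the only HD rat. It is the lowest of the 6 rats in Scd1, Thrsp, Fasn, Elovl6, Acacb and Mlxipl and above every AL rat in Acly. The signs of these genes in that fit were therefore fixed.

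Elovl6, which lengthens palmitate to stearate, had 15.9, 13.0 and 17.1 CPM in the AL rats and 9.0, 11.0 and 16.3 CPM in the HD rats. Rats 64 and 67 were below every AL rat and rat 69 was among them. On average HD rats were lower, by a log2 fold change of -0.33 with a standard error of 0.25 (edgeR adjusted *P* = 0.699), and it was -0.60 without rat 69 and -0.16 without rat 64. Its transcript was listed at 2 places on chromosome 2 of rn5 (253509516 to 253616747 on the minus strand and 253695766 to 253803588 on the plus strand) with the estimated counts divided equally, and the sum is given here.

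Of 13 tested genes of fatty acid elongation and desaturation besides Elovl6 and Scd1, 9 had higher fold changes (51.3% of all tested genes). The other 4 had lower ones (Scd, Hsd17b12, Ptplad1 and Ptplad2), with a median log2 fold change of 0.21 over the 13 and none past the adjusted threshold. Fads2, the first desaturase on the way to long polyunsaturated fatty acids, had 23.0, 28.05 and 22.2 CPM in the AL rats and 54.5, 27.8 and 45.7 CPM in the HD rats. Rat 64, the lowest rat in Scd1, was the highest in Fads2. For Fads2 the log2 fold change was 0.80 with a standard error of 0.24 (edgeR adjusted *P* = 0.406). Its neighbour in the pathway, Fads1, had a log2 fold change of 0.41, and Elovl1, an elongase of saturated very long chains, one of 0.23 with every HD rat (203 to 226 CPM) above every AL rat (182 to 193 CPM). Ptplad2, a dehydratase of the elongation cycle now called Hacd4, had 1.91, 7.48 and 7.15 CPM in the AL rats and 1.44, 1.7 and 2.40 CPM in the HD rats, with a log2 fold change of -1.56 (edgeR adjusted *P* = 0.406). AL rat 61 lay among the HD rats for this gene.

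Mlxipl encodes ChREBP, which binds carbohydrate response elements together with its partner Mlx when sugar phosphates accumulate. It lies on chromosome 12 of rn5 (26588220 to 26620779, minus strand). Its level was 112, 146 and 115 CPM in the AL rats and 91.0, 97.8 and 98.8 CPM in the HD rats. Every HD rat was below every AL rat, the HD rats were within 1.09-fold of each other, and AL rat 71 was the highest. The means were 124 ± 18.6 and 95.9 ± 4.25 CPM (SD, *n* = 3 each). The log2 fold change was -0.38, with a standard error of 0.13, an unadjusted *P* value of 0.0226 and an adjusted *P* value of 0.406 in edgeR, and it was -0.24 without rat 71.

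Of 10 tested ChREBP targets outside lipogenesis, 9 had higher fold changes in the HD group (51.3% of all tested genes). A lower one was found for 1 (Pklr, the liver-type pyruvate kinase), and the median was 0.38 on the log2 scale. None passed the adjusted threshold in edgeR, and 3 were higher at an unadjusted *P* value below 0.05, against 4.66% of all tested genes. Txnip, an inhibitor of glucose uptake and of thioredoxin, had 327, 255 and 354 CPM in the AL rats and 429.6, 372 and 517 CPM in the HD rats, with no overlap and a log2 fold change of 0.50 (edgeR adjusted *P* = 0.408). Its relative Arrdc4 was much lower, with 0.159, 0.554 and 0.265 CPM in the AL rats and 1.19, 0.700 and 1.63 CPM in the HD rats, and had a log2 fold change of 1.79 with a standard error of 0.61 (edgeR adjusted *P* = 0.406). Gpd1, which turns a glycolytic intermediate into the glycerol backbone of triglycerides, had 303, 243 and 231 CPM in the AL rats and 361, 376 and 390.5 CPM in the HD rats. Its groups did not overlap, and its log2 fold change of 0.54, with a standard error of 0.13, had an adjusted *P* value of 0.379 in edgeR and 0.0293 in DESeq2. The circadian repressor Bhlhe40 had a log2 fold change of 0.68, with rat 69 high (253 CPM) and rat 67 (106 CPM) among the AL rats.

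Among 18 tested genes that control SREBP and ChREBP, 15 had higher fold changes (51.3% of all tested genes) and 3 lower ones (Srebf2, Usf1 and Usf2). None had an unadjusted *P* value below 0.05 in edgeR (10.6% of all tested genes), and none had groups apart (14.3%). The median log2 fold change was 0.12. Scap, the escort protein of SREBP, had 55.0, 61.3 and 54.6 CPM in the AL rats and 71.5, 57.6 and 72.6 CPM in the HD rats, with a log2 fold change of 0.24. The log2 fold changes were 0.51 for the growth factor Fgf1, 0.54 for the nuclear receptor Rxra and 0.19 for its partner Nr1h3 (LXR alpha), a driver of Srebf1 transcription.

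Of 19 tested genes of triglyceride synthesis, 13 had higher fold changes (51.3% of all tested genes) and 6 lower ones, with a median log2 fold change of 0.16. The groups lay apart with the HD rats higher for 4 genes (7.25% of all tested genes), which were Gpd1, the acyltransferase Agpat9, which starts glycerolipid synthesis, and Agpat1 and Agpat3, which add the next acyl chain. Agpat9 had 24.7, 30.4 and 30.97 CPM in the AL rats and 42.9, 35.1 and 34.4 CPM in the HD rats, with a log2 fold change of 0.38 (edgeR adjusted *P* = 0.426). Another acyltransferase, Gpat2, was low and had every HD rat (1.31 to 1.80 CPM) below every AL rat (2.05 to 2.77 CPM), with a log2 fold change of -0.67. Glycerol kinase (Gk) had a log2 fold change of 0.39, and its groups overlapped.

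Counted once each, the 80 genes of these 6 lists had 58 higher fold changes (51.3% of all tested genes) and 22 lower ones. Their median log2 fold change was 0.14 beside 0.00673 for all tested genes. In edgeR 8 were higher (4.66% of all tested genes) and 1, Ptplad2, lower (5.94%) at an unadjusted *P* value below 0.05, and 0 passed the adjusted threshold. With the HD rats above the AL rats without overlap there were 11 genes (7.25% of all tested genes), and with the HD rats below there were 2, Prkaa1 and Gpat2 (7.01%).

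**Figure D5:**
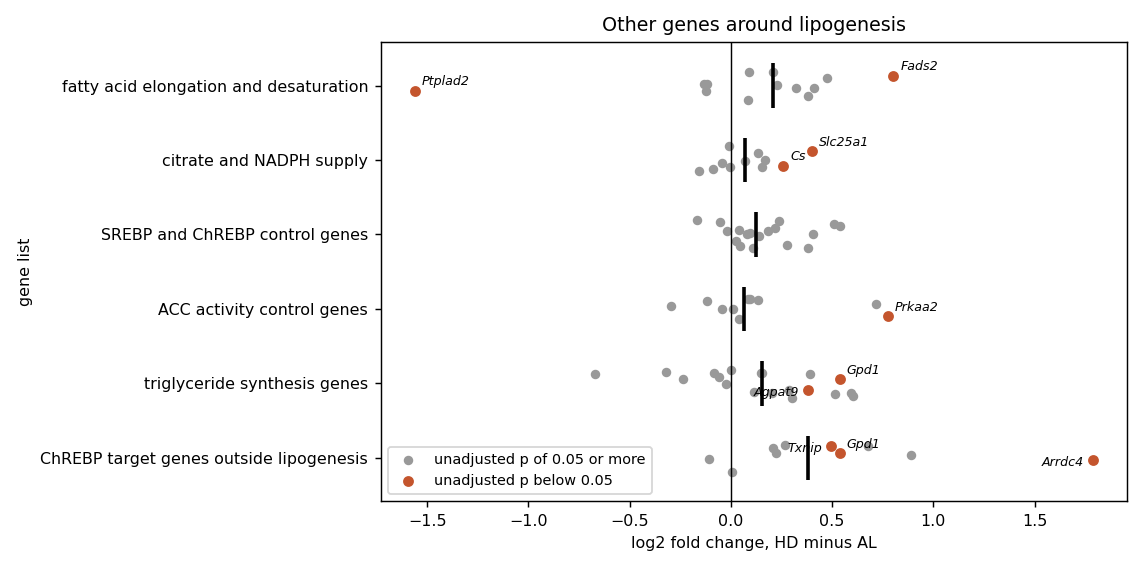
Log2 fold change (HD minus AL) of the tested genes in 6 lists around lipogenesis. Each point is a gene (red below an unadjusted *P* value of 0.05, grey otherwise), spread vertically to separate the points, and the black bar is the list's median, which runs from 0.062 for acetyl-CoA carboxylase (ACC) control to 0.38 for ChREBP targets.

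The mean log2 level of the 9 lipogenic genes, centred on each gene's mean, was 0.19, -0.70 and -0.15 in AL rats 61, 71 and 88 and -1.18, 0.84 and 1.01 in HD rats 64, 67 and 69. It was highest in rats 69 and 67 and lowest in rat 64. The range was mostly that of Scd1 and Thrsp. Over the other 7 genes the mean was 0.0031, -0.11 and 0.017 in the AL rats and -0.51, 0.17 and 0.44 in HD rats 64, 67 and 69. Over the 6 rats, the 5 other tested genes whose log2 level followed the mean of all 9 genes most closely were Dnal4 (Pearson's r = 0.998), Postn (0.993), Tusc5 (0.989), Retn (0.983) and Runx1t1 (0.975). These values are a description, since they were picked as the highest of all tested genes over 6 rats that share the 2 diets. Retn is the adipocyte hormone resistin, and Tusc5, a membrane protein of fat tissue, had 2.70, 1.16 and 2.12 CPM in the AL rats and 0.170, 10.1 and 11.1 CPM in the HD rats. Periostin (Postn), a matrix protein, ranged from 0.509 CPM in rat 64 to 6.62 CPM in rat 69. Dnal4, a dynein light chain, followed the mean within a range of 25.1 to 32.3 CPM, and Runx1t1, a transcriptional corepressor, ranged from 0.594 to 1.34 CPM.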

How the data were processed

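RNA of 6 rat kidneys, 3 of the AL group and 3 of the HD group by the diet in the labels, was sequenced as unstranded poly(A) libraries (single end). Per the labels and the study's methods, the authors quantified transcripts with RSEM 1.1.15 at default settings on rn5 gene definitions (submitters' processing notes). The authors deposited for each transcript an estimated count without normalization and a posterior mean of it, with TPM scaled to length and library. Deposited FPKM values and a relative expression score with its bounds entered no result. Filters on the reads are not given in the sources used here.

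Estimated counts were summed per gene and rounded. Genes that reached a count of 30 in some rat were tested with edgeR 4.0.16 (R 4.3.3; quasi-likelihood, TMM, diet as the only factor) with Benjamini-Hochberg adjustment over 11553 genes and an adjusted *P* threshold of 0.05. The standard error is the absolute log2 fold change divided by the square root of F. The common biological coefficient of variation was 0.242. DESeq2 1.42.0, robust fitting, RLE or library size scaling, other count minimums, posterior mean counts and leaving out each rat were alternatives. The fit with adipocyte markers as a covariate and the fit without rats 67 and 69 were added after the data were seen. The ratio of Acacb to Acaca was tested on log2 TPM ratios by an exact permutation test. Scripts were tested on simulated data. Tables were handled in Python 3.11.15 (numpy 2.4.6, pandas 2.3.3) and plots drawn with matplotlib 3.10.9.

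The lipogenic genes and all lists were chosen with earlier results of these data known. Named genes are all lipogenic genes, all adipocyte markers listed, from each pathway list the 4 with the smallest *P* value in edgeR (none passed the adjusted threshold), and the 5 genes most like the mean of the lipogenic genes. Scd and genes named to account for a small count lie outside this rule. Some results covered by the rule or the marker lists are not reported here. Replicate numbers of the rats follow accession order and pair nothing. Separate animals are the replicates.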

Additional observations from a re-analysis of the deposited data

How the results depend on the processing

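The 9 lipogenic genes kept the direction of their log2 fold change in all 63 results of the 7 other settings that kept every rat. They also kept it in all 54 results that left out 1 rat, and none passed the adjusted threshold in any of these results. Part of this was fixed in advance. Robust fitting left the 9 fold changes the same. The groups of Acly and Mlxipl did not overlap, so leaving out 1 rat could not turn these 2 genes. Of the 18 results of the 2 fits added after the data were seen, 7 changed sign. With adipocyte markers as a covariate these were Scd1 (-0.51) and Thrsp (-0.41). Without HD rats 67 and 69 they were Acaca (-0.21), Acss2 (-0.034), Fasn (-0.68), Scd1 (-3.62) and Thrsp (-3.25), which left 1 of the 9 genes on the higher side in place of 6. Rat 64 was the lowest of the 6 rats in Fasn, Scd1 and Thrsp, so the sign of these 3 was fixed by leaving out rats 67 and 69. The signs that were kept in this fit were fixed too. Rat 64 was also the lowest in Acacb, Elovl6 and Mlxipl, and it was above every AL rat in Acly. For Acaca and Acss2 the sign followed from rat 64, the only HD rat left. Its levels (5.18 and 1373 CPM) lay below the AL means (5.93 and 1397 CPM). For Scd1 and Thrsp with the covariate the change of sign is no test, since they shared their order of rats with markers in it.

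Across all tested genes, 0 passed the adjusted threshold in edgeR (1224 at an unadjusted *P* value below 0.05) and 182 in DESeq2. The number was 2 with a count above 0 in 1 rat, 1 with the covariate, 2 without rats 67 and 69, and 0 to 4 without 1 rat. Genes at an unadjusted *P* value below 0.05 numbered 605 (without rat 88) to 1793 (without rat 69), with 640 without rat 64. For the lipogenic genes the number was 2 to 5, with 5 without rat 64 in place of 3, and for the pathway lists 5 (without rat 88) to 14 (without rat 69) in place of 9. Of the pathway lists, 1 gene passed in DESeq2, Gpd1. The log2 ratio of Acacb to Acaca ranged from -2.04 to -1.06 without 1 rat and was -1.56 from CPM divided by length. Scaling by library size alone moved the median of all genes to -0.074 and turned none of the 9 directions. No paired analysis was possible because the labels give no replicate numbers that are shared between the groups. The level of Arrdc4 rests on few counts, with no more than 1.63 CPM in any rat.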
